A study of Mus musculus with 6 samples.

Results

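The genes of the calcineurin pathway and of the other NFAT (nuclear factor of activated T cells) factors were examined in mouse cortical bone cultured with or without parathyroid hormone (PTH). They were taken from the array by gene symbol and comprised the NFAT factors *Nfatc2*, *Nfatc3* and *Nfatc4*, the related factor *Nfat5*, the calcineurin subunits *Ppp3ca*, *Ppp3cb*, *Ppp3cc* and *Ppp3r1*, and the calcineurin regulators *Rcan1* and *Rcan2*, which the array lists under the older symbols *Dscr1* and *Dscr1l1*. These 10 genes, of 31508 gene symbols on the array, had 29 of its 45281 probes, and 17 of the 29 exceeded background on 3 or more of the 6 arrays and were tested, among 16214 probes tested in all. *Nfatc4* was the only one of the 10 called changed with PTH, and it rose 1.69-fold. This call was lost when any of the 6 arrays was left out.

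The study asked how PTH alters gene expression in osteocytes, the cells embedded in bone, while they remain in their matrix. Tibiae and femurs of C57BL6 mice aged 3 months by the sample labels (the study's methods give a range that starts younger) were stripped of epiphyses and marrow, digested repeatedly with collagenase and trypsin to remove surface cells, and kept overnight as bone tubes in αMEM with fetal calf serum. The medium was then replaced for 24 hours by medium with no added hormone (control, 3 arrays) or with Pth 1-34, the active fragment of PTH, at 250 nM (PTH, 3 arrays). Bones of 4 to 5 mice were pooled in an experiment and about 10 bones made a preparation, so that an array describes a pool and not a mouse. The labels name no transgene or deletion. Nothing states whether the 3 arrays of a group came from separate pools, so p-values measure only the spread between these arrays, which may be technical.

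Calcineurin is a phosphatase that is switched on by calcium. It is made of a catalytic subunit, encoded by *Ppp3ca*, *Ppp3cb* or *Ppp3cc*, and a regulatory subunit that binds calcium, encoded in most tissues by *Ppp3r1*. It removes phosphates from the NFATc factors in the cytoplasm, which lets them enter the nucleus, and kinases return them to the cytoplasm. Since this switch acts on the protein, mRNA abundance does not report NFAT activity. Nfat5 shares the DNA-binding domain of the family but lacks the calcineurin docking region and is best known for the response to high salt. Rcan1 and Rcan2 bind and restrain calcineurin, and a short form of *Rcan1* that starts at a downstream promoter is a well-known NFAT target. In bone, calcineurin and NFAT are best known for driving the formation of osteoclasts, the cells that resorb bone, and they also act in osteoblasts.

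The arrays gave a signal intensity per probe, given here as log2 values after background correction and quantile normalization, on which 1 unit is a doubling. Median signal before normalization was 111 to 129 on the 6 arrays, and 34.2% to 38.4% of probes were above background (detection p under 0.05). Mean signal was highest on PTH replicate 3, at 429 against 298 to 349 on the others, and the arrays numbered 3 had the most probes above background in each group. A probe was called changed at an adjusted p under 0.05 with a change of at least 1.5-fold. Of all probes tested, 0.617% were called higher with PTH and 0.993% lower, and the median change was 0.00 (log2). Of the markers that define osteocytes, *Dmp1*, *Phex*, *Mepe* and *Sost* were above background on all control arrays, whereas *Fgf23* was above background on no array. In bulk RNA, fewer cells of a type and less RNA per cell cannot be told apart.

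Across the 17 tested probes, 1 was called higher (*Nfatc4*), none was called lower and 16 did not pass (limma's moderated test with Benjamini-Hochberg adjustment). At an unadjusted p under 0.05 limma counted 2 probes as higher and 1 as lower, and the methods' t-test counted 2 and 1 as well, while 14.6% of all probes tested reached that level in limma. The called share in either direction over all probes was 1.61%. The mean was higher with PTH for 7 probes and lower for 10. Changes ran from -0.42 to 0.76 with a median of -0.06 (log2), beside a median of 0.00 and quartiles of -0.17 and 0.17 over all probes tested. All 3 PTH arrays lay above all 3 control arrays for 3 probes and below them for 1, while the groups overlapped for the other 13. Over all probes tested the groups did not overlap for 20.8%.

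**Figure D1:**
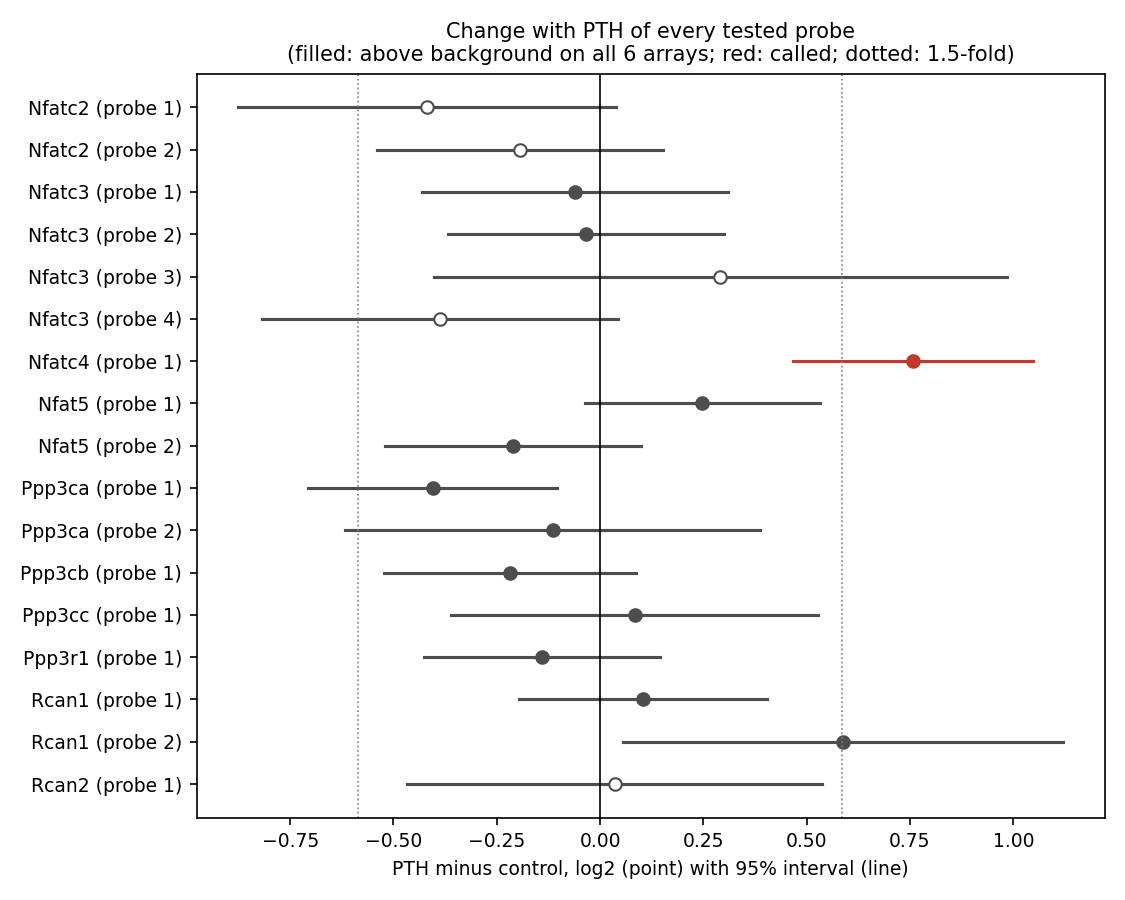
Change with PTH of each of the 17 tested probes (normalized log2 signal, PTH minus control), drawn as a point with its 95% interval from the limma fit. Filled points are probes above background on all 6 arrays, red marks the called probe and the dotted lines mark a 1.5-fold change. The *Nfatc4* probe lies at 0.76, and the intervals of *Ppp3ca* probe 1 (-0.71 to -0.10) and *Rcan1* probe 2 (0.06 to 1.12) also exclude 0 although neither was called.

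*Nfatc4* encodes an NFAT factor found in many tissues outside the immune system and best known from muscle, heart, vessels and nerve. The study had already listed a gene printed as Nfac4, presumably *Nfatc4*, among those raised by PTH in these bones. It had a single probe (ILMN_2647331), above background on all 6 arrays. Its normalized log2 signal was 9.23, 9.05 and 9.05 on control replicates 1, 2 and 3 and 9.80, 9.83 and 9.98 on PTH replicates 1, 2 and 3. The groups were clearly apart, since the lowest PTH array exceeded the highest control array by more than the range within either group. The mean was 9.11 ± 0.10 (SD, n = 3) in control and 9.87 ± 0.10 (SD, n = 3) with PTH. The difference was 0.76 ± 0.13 (SE; 95% interval 0.47 to 1.05), or 1.69-fold higher, with an adjusted p of 0.0312 in limma, and was seen on 3 of 3 PTH arrays. Before any normalization the signals were 568, 621 and 612 in control and 816, 1028 and 1504 with PTH, so the groups were also separate in the values as deposited.

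Among the 100 probes called higher with PTH, the change of *Nfatc4* ranked number 89, and their median change was 0.98. It was thus among the smaller of the called rises. Leaving out 1 array at a time kept the difference between 0.70 and 0.82 but moved the adjusted p in limma to 0.0968 without control replicate 1, 0.135 without control replicate 2, 0.102 without control replicate 3, 0.0901 without PTH replicate 1, 0.102 without PTH replicate 2 and 0.0877 without PTH replicate 3. It passed under 7 of 17 alternatives, all with the same direction. With both arrays numbered 3 left out, it was 0.67 (limma adjusted p 0.201). The exact permutation test on 3 against 3 arrays can give no p below 0.1.

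**Figure D2:**
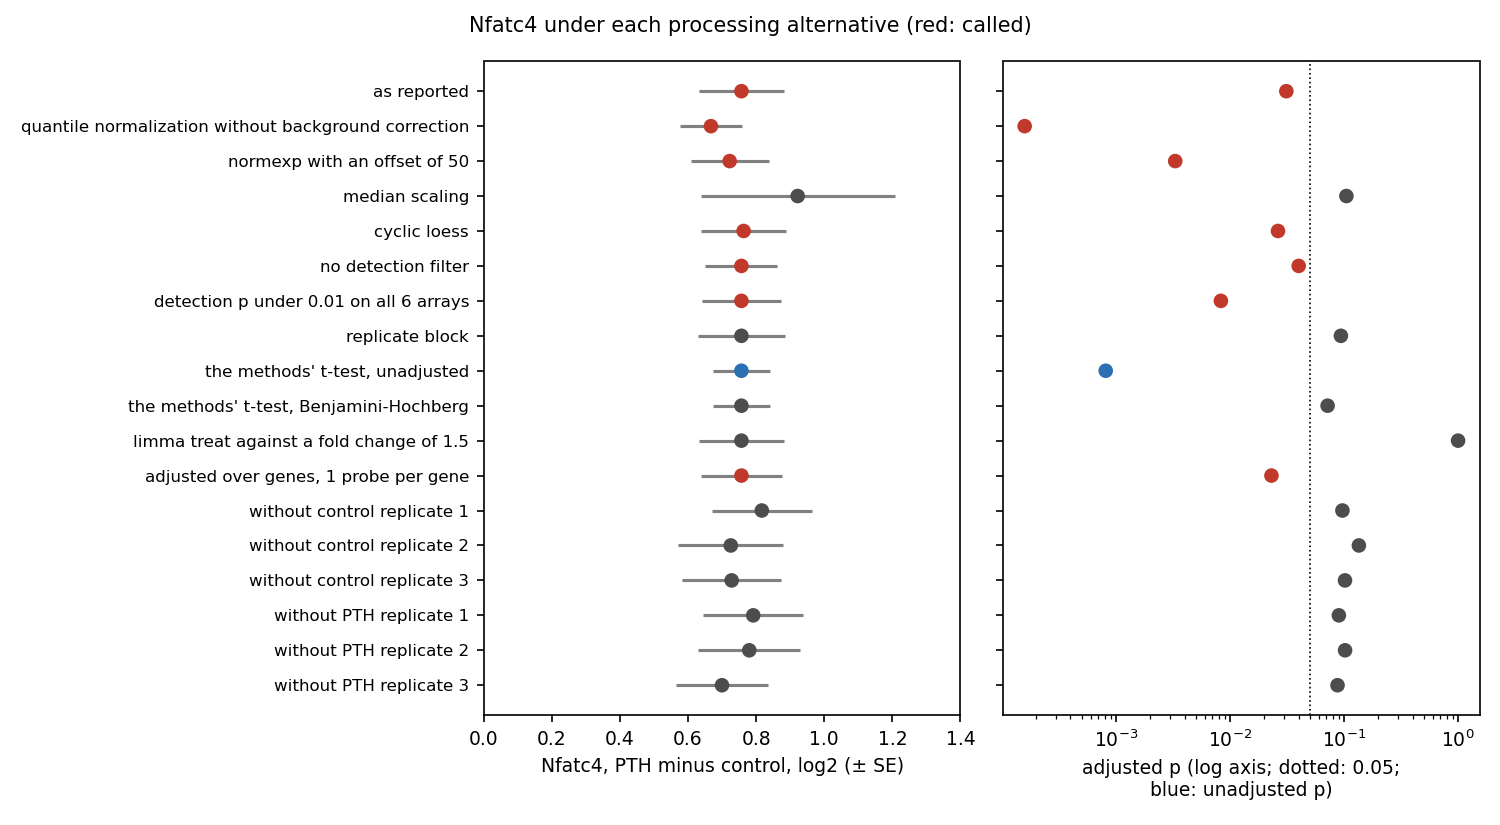
*Nfatc4* under each way of processing the data. The left panel gives PTH minus control (log2, point ± SE) and the right panel the adjusted p on a log axis, with a dotted line at 0.05, red for a called difference, grey for one not called and blue for the unadjusted p of the methods' t-test, which passed. The difference ran from 0.67 to 0.92, while the adjusted p lay on either side of the line and was above it in all 6 fits that leave out an array.

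Because *Nfatc4* was the only one of the 10 genes called, the 250 bases upstream of its annotated start are printed here (RefSeq, GRCm38.p6, chr14:55824545-55824794, plus strand), 5′ to 3′ on the strand of the gene. Capitals mark GGAAA, the core that NFAT factors bind, on either strand (as TTTCC on the other), and would also mark TGACG, the core of the cAMP response element TGACGTCA.
Nfatc4 promoter: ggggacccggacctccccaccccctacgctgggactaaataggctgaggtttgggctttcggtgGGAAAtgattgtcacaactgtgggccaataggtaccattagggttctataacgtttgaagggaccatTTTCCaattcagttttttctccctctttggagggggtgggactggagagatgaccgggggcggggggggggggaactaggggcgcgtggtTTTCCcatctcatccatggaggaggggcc
GGAAA occurred 3 times in this window, from positions -186, -119 and -29 counted from the start, and TGACG was not found. Such a short motif is common, and 55.6% of 32851 mouse promoters of the same length held it on at least 1 strand. TGACG was found in 17.8% of them. Of the 10 genes, 8 had an entry, with 13 windows in all, of which 8 held GGAAA and 3 held TGACG. A match is a description of the sequence only.

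*Nfatc3*, an NFAT factor of many tissues that also acts in lymphocytes, did not pass on any of its 4 tested probes. Probe 1, the brightest (ILMN_1247401), gave 9.57, 9.67 and 10.07 in control and 9.63, 9.68 and 9.82 with PTH. The groups overlapped and the difference was -0.06 ± 0.16 (SE; 95% interval -0.43 to 0.31, limma adjusted p 0.907). Probe 2 gave 7.53, 7.19 and 7.25 in control and 7.42, 7.16 and 7.29 with PTH, a difference of -0.03 (95% interval -0.37 to 0.30). For both probes the interval leaves out a change of 1.5-fold in either direction. Probes 3 and 4 were close to background. They gave 0.29 (95% interval -0.40 to 0.99) and -0.39 (95% interval -0.82 to 0.04), with overlapping groups. The remaining *Nfatc3* probe was above background on no array.

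Within an array, the *Nfatc4* probe moved relative to *Nfatc3* probe 1 by 0.82 between the groups (log2), with all PTH arrays above all control arrays, and relative to *Nfat5* probe 1 by 0.51, also without overlap. The exact two-sided permutation p was 0.1 for each, the smallest possible here, and 0.125 after adjustment over the 5 comparisons of this kind, which were chosen after the values were seen. At this number of arrays the test cannot show whether the genes changed unequally.

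*Nfatc2*, the founding NFAT factor of T cells, was near the detection limit. Of its 6 probes, 3 were above background on no array, and none was above background on all 6. Probe 1 (ILMN_3082773) was above background on 3 control arrays and 1 PTH array, with values of 5.66, 5.18 and 5.10 in control and 5.17, 4.84 and 4.68 with PTH. The PTH values were lower on average but overlapped with control, and the difference of -0.42 ± 0.20 (SE; 95% interval -0.88 to 0.04) did not pass (limma adjusted p 0.387). Probe 2 differed by -0.19 (limma adjusted p 0.621). Of the 8 listed markers of T lymphocytes, the cells in which this factor is best known, *Cd3d*, *Cd3e*, *Cd3g* and *Zap70* were above background on no array and *Cd2* on 1. *Lck*, *Cd28* and *Cd5* were above background on 5, 4 and 5 of the 6 arrays and were tested. They differed by 0.29, -0.51 and -0.22 with overlapping groups, and 0 of the 3 were called (limma adjusted p 0.746, 0.299 and 0.559). Over all 8 listed markers, including those at background, the summed signal was 226 to 262 in control and 215 to 256 with PTH.

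*Nfat5* encodes the tonicity factor. Its brightest probe (ILMN_2612448) read 8.90, 8.65 and 8.81 in control and 9.01, 9.08 and 9.02 with PTH. All PTH arrays lay above all control arrays, yet the difference of 0.25 ± 0.12 (SE; 95% interval -0.04 to 0.53) did not pass (limma adjusted p 0.411). Non-overlap in this direction was seen for 10.3% of all probes tested. Probe 2 differed the other way, from 7.17, 7.40 and 7.29 to 7.19, 6.92 and 7.12, or -0.21 (95% interval -0.52 to 0.10, limma adjusted p 0.534). Both probes had clear signal on all 6 arrays and their means moved in opposite directions, but both intervals include 0. Their ratio within an array moved by 0.46 without overlap (exact permutation p = 0.1, adjusted 0.125). At this number of arrays the test cannot show whether the probes changed unequally. Another probe was above background on no array. The array also holds a probe under the symbol B130038B15Rik, an older name of *Nfat5* in RefSeq that the choice by symbol did not take, with values of 4.97, 5.13 and 5.40 in control and 5.86, 5.94 and 5.41 with PTH. All its PTH arrays lay above its control arrays, PTH replicate 3 by a narrow margin. Its difference of 0.57 ± 0.18 (SE) missed the threshold (limma adjusted p 0.203). The probe sequences were not given, so it is not known which transcripts each probe reads.

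**Figure D3:**
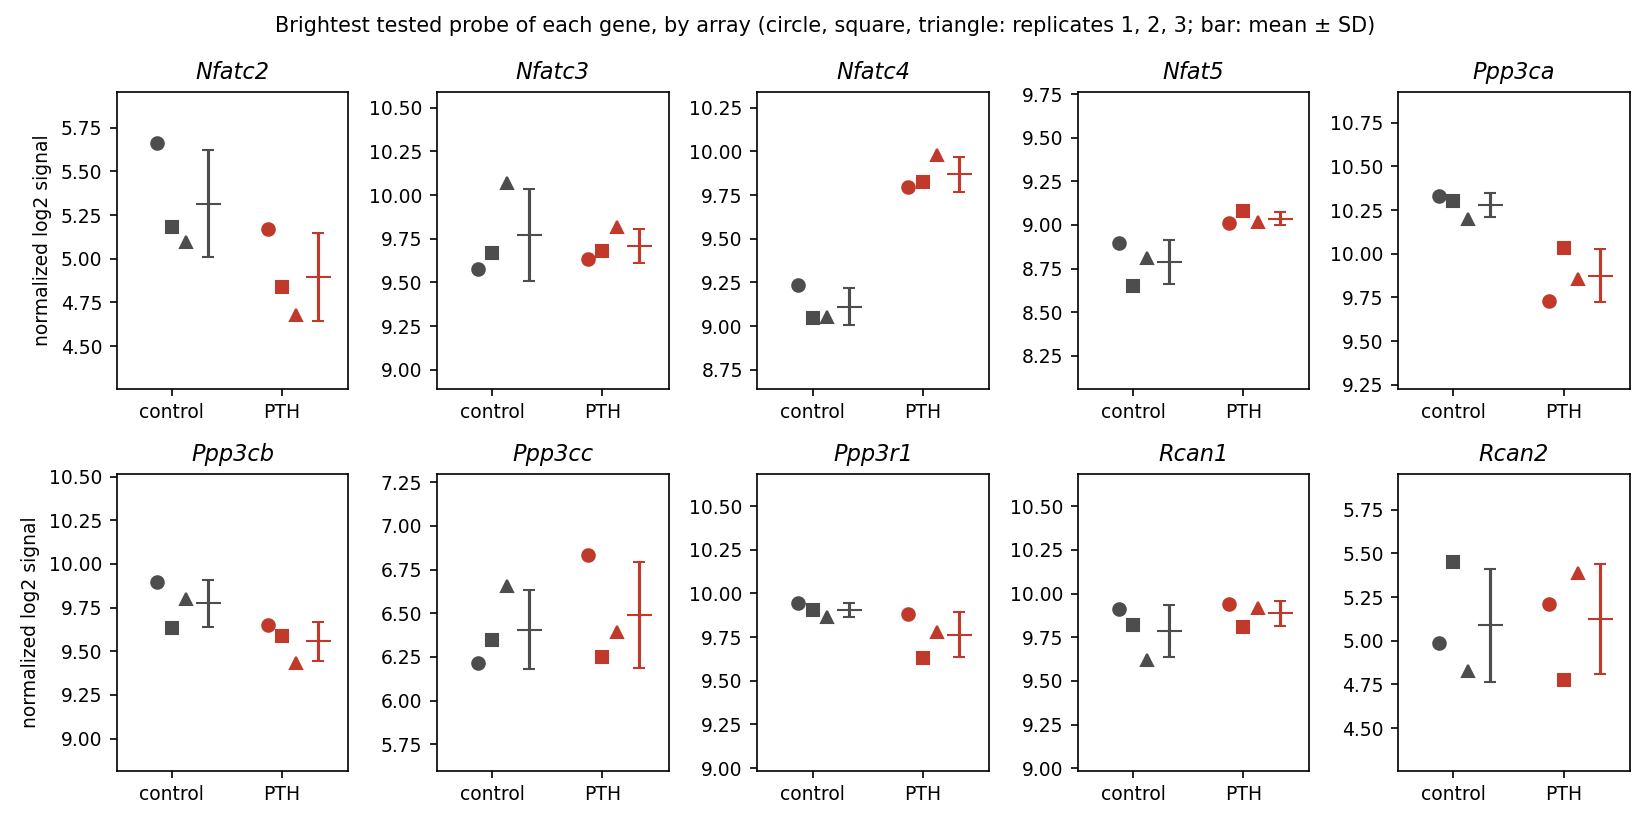
Normalized log2 signal of the brightest tested probe of each of the 10 genes on the 3 control (grey) and 3 PTH (red) arrays. Circles, squares and triangles are replicates 1, 2 and 3, the bar beside them is the mean ± SD, and each panel has its own position on the axis but the same span. The groups are apart for *Nfatc4* and *Nfat5*, with PTH higher, and for *Ppp3ca*, with PTH lower, and overlap for the other 7.

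The catalytic subunits of calcineurin had 4 tested probes, of which 0 passed. *Ppp3ca*, the alpha subunit, was read most clearly by probe 1 (ILMN_2971286), at 10.33, 10.30 and 10.20 in control and 9.73, 10.03 and 9.86 with PTH. All PTH arrays were below all control arrays, which was the case for 10.5% of all probes tested. The mean was 10.28 ± 0.07 (SD, n = 3) in control and 9.87 ± 0.15 (SD, n = 3) with PTH. The difference of -0.41 ± 0.13 (SE; 95% interval -0.71 to -0.10) was a 1.32-fold lower signal, and it did not pass (limma adjusted p 0.203). With quantile normalization and no background correction its adjusted p in limma was 0.0297, with a difference of -0.37, which stayed short of the 1.5-fold needed for a call. Probe 2 gave 7.40, 7.74 and 8.18 in control and 7.58, 7.49 and 7.91 with PTH. These overlapped, with a difference of -0.12 (95% interval -0.62 to 0.39, limma adjusted p 0.862), and the change of probe 1 relative to probe 2 overlapped between the groups too (-0.29, exact permutation p = 0.4).

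*Ppp3cb*, the beta subunit, read 9.90, 9.63 and 9.80 in control and 9.65, 9.59 and 9.44 with PTH. The difference of -0.22 (95% interval -0.52 to 0.09) did not pass (limma adjusted p 0.513). *Ppp3cc*, the gamma subunit, which is most abundant in testis, was above background on all 6 arrays at 6.22, 6.35 and 6.65 in control and 6.83, 6.25 and 6.39 with PTH. Control and PTH overlapped for both genes, and *Ppp3cc* differed by 0.08 (95% interval -0.36 to 0.53, limma adjusted p 0.889).

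*Ppp3r1* encodes the regulatory subunit. Its tested probe (ILMN_2953411) gave 9.95, 9.91 and 9.86 in control and 9.89, 9.63 and 9.78 with PTH, which overlapped. The difference was -0.14 ± 0.12 (SE; 95% interval -0.43 to 0.15, limma adjusted p 0.671), so that a change of 1.5-fold lies outside the interval in both directions. The intervals of *Ppp3ca* probe 1, *Ppp3cb* and *Ppp3r1* leave out a rise of that size.

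*Rcan1*, the calcineurin inhibitor that NFAT itself induces, had higher means with PTH on both tested probes, by unlike amounts, and neither passed. Probe 1 (ILMN_2701991) was the brightest, at 9.91, 9.82 and 9.62 in control and 9.94, 9.81 and 9.92 with PTH. It overlapped between the groups and differed by 0.10 (95% interval -0.20 to 0.40, limma adjusted p 0.777). Probe 2 (ILMN_1259180) was much dimmer but above background on all 6 arrays, and read 6.22, 5.36 and 5.84 in control and 6.31, 6.65 and 6.23 with PTH. It spread more widely in control than with PTH. Its PTH arrays lay above its control arrays by a narrow margin over control replicate 1. The mean was 5.80 ± 0.43 (SD, n = 3) in control and 6.39 ± 0.22 (SD, n = 3) with PTH, a difference of 0.59 ± 0.23 (SE; 95% interval 0.06 to 1.12), that did not pass (limma adjusted p 0.289). Its size depended on the processing and on a single array, at 0.24 without background correction, 0.39 with an offset of 50 and 0.37 without control replicate 2. The ratio of probe 2 to probe 1 moved by 0.49 with no overlap between the groups (exact permutation p = 0.1, adjusted 0.125). At this number of arrays the test cannot show whether the probes changed unequally. The other *Rcan1* probe was above background on 1 control array and no PTH array and was not tested.

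*Rcan1* has annotated starts at a pair of promoters. The 250 bases upstream of each are shown because the measured changes of its probes were unlike in size, although unequal change was not shown (RefSeq, GRCm38.p6, minus strand, printed 5′ to 3′ on the strand of the gene, with capitals as above). The window of the upstream start is chr16:92466170-92466419, and that of the downstream start, the one that lies further along the gene, is chr16:92400079-92400328.
Rcan1 upstream promoter: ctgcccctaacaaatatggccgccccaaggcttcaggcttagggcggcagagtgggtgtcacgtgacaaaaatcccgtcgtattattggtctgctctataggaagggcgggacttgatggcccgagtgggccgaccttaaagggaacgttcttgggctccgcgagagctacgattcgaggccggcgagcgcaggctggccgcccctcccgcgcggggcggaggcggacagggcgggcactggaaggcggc
Rcan1 downstream promoter: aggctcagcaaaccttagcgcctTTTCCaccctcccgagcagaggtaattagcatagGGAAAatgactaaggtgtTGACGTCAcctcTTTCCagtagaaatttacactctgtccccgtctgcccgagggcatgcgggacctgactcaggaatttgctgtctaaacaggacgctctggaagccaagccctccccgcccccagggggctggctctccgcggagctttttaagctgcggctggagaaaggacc
The upstream window held neither GGAAA nor TGACG. The downstream window held GGAAA 3 times, from positions -227, -193 and -163, and the full palindrome TGACGTCA, whose TGACG cores begin at -175 and -172 on opposite strands and overlap. TGACGTCA was present in 508 of the 32851 promoters, or 1.55%, and in 1 of the 13 windows of these genes. The array file does not say which *Rcan1* transcript each probe reads, so the readings of the probes cannot be assigned to either start.

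*Rcan2*, the relative of *Rcan1*, was at the detection limit. Of its 3 probes, 2 were above background on no array, and the tested one was above background on 1 control array and 2 PTH arrays, at 4.99, 5.45 and 4.83 in control and 5.21, 4.78 and 5.39 with PTH. The groups overlapped with a difference of 0.04 (95% interval -0.47 to 0.54, limma adjusted p 0.962). A change of 1.5-fold lies outside this interval, but the probe was not above background on the other 3 arrays.

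The 68 other genes of the pathway, in 6 lists, were all on the array and 42 were tested by their brightest probe. Of these, 3 were called higher with PTH, 0 were called lower and 39 did not pass, and the median change was 0.01, beside 0.01 over all 11490 genes tested. Among all genes, 0.705% were called higher and 1.05% lower, or 1.76% in all. At an unadjusted p under 0.05 limma counted 8 of the 42 as higher and 2 as lower. The methods' t-test also counted 8 and 2, which need not be the same genes. Over all probes tested, a count by probe that includes dimmer probes of the same genes, 14.6% reached that level in limma. All 3 called genes were in the list of NFAT target genes. The lists were chosen with earlier results of these data known. The study had itself named *Tnfsf11*, *Oscar* and a gene printed as Nfac4, presumably *Nfatc4*, as raised by PTH. That the calls fall in this list is therefore no test of NFAT.

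Upstream of calcineurin, 11 of 16 genes of calcium release and entry (among them store-operated channels, IP3 receptors and phospholipases C) were tested and 0 were called, with a median of -0.07. By brightest probe, the largest difference in the list was that of *Itpr3*, an IP3 receptor, at 0.37 (limma adjusted p 0.611), followed by *Stim1*, the calcium sensor of the endoplasmic reticulum, at -0.26 (limma adjusted p 0.575). *Orai2* and *Plcg1* were among those above background on no array. A dimmer probe of another gene of the list differed by 0.43 and did not pass (limma adjusted p 0.18). Among proteins that bind calcineurin, 4 of 9 were tested and 0 were called, with a median of 0.05. *Chp1*, a calcineurin-like protein that can inhibit the enzyme, differed by 0.29 (limma adjusted p 0.292) without overlap between groups, and its second tested probe by 0.49 with overlap. *Fkbp1a*, the binding protein of the drug FK506, differed by -0.10 (limma adjusted p 0.75).

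The kinases and carriers that return NFAT to the cytoplasm, with the scaffolds that bind it, had 12 of 14 genes tested and 0 called, with a median of -0.06. *Mapk8*, which encodes the kinase JNK1, had a mean of 6.05 ± 0.11 (SD, n = 3) in control and 6.65 ± 0.22 (SD, n = 3) with PTH. It was higher on every PTH array, but the difference of 0.60 ± 0.15 (SE) missed the threshold (limma adjusted p 0.116), while its second tested probe differed by -0.20 with overlapping groups. *Homer2*, a scaffold that competes with calcineurin for NFAT, read 7.31, 7.04 and 7.29 in control and 6.91, 6.59 and 6.37 with PTH. This was lower on every PTH array, and the difference of -0.59 ± 0.17 (SE) also missed the threshold (limma adjusted p 0.159). Its second tested probe differed by -0.16 with overlap. Of the other substrates of calcineurin, 3 of 5 were tested and 0 were called, with a median of 0.19. *Crtc1* and *Crtc3*, coactivators of CREB that calcineurin dephosphorylates, differed by 0.27 (limma adjusted p 0.501) and 0.19 (limma adjusted p 0.566), and the second tested *Crtc3* probe by -0.30 with overlap.

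In the list of NFAT target genes 8 of 16 were tested, of which 3 were called higher and 0 lower, with a median of 0.60. *Tnfsf11*, the cytokine RANKL that induces osteoclasts, read 8.21, 8.02 and 8.93 in control and 9.91, 9.65 and 10.09 with PTH and rose by 1.49 ± 0.25 (SE, limma adjusted p 0.0298). *Oscar*, a receptor of osteoclasts, read 6.72, 6.26 and 6.65 in control and 7.38, 7.77 and 7.64 with PTH and rose by 1.05 ± 0.17 (SE, limma adjusted p 0.0297). *Acp5*, the acid phosphatase of osteoclasts known as TRAP, read 6.84, 7.11 and 7.31 in control and 7.91, 7.91 and 7.95 with PTH and rose by 0.84 ± 0.15 (SE, limma adjusted p 0.0372). None of the 3 genes had a PTH array within the range of its control arrays. With an array left out, *Tnfsf11* passed in 1 of 6 fits (without control replicate 3, adjusted p 0.0144 in limma), and *Oscar* and *Acp5* passed in 0 of 6. Over these fits their adjusted p in limma ran from 0.0144 to 0.12, from 0.0603 to 0.108 and from 0.0546 to 0.135. The 3 calls were also lost without the detection filter, with the methods' t-test after adjustment and with a test against a 1.5-fold change. *Acp5* was lost with median scaling too (limma adjusted p 0.0828). With quantile normalization alone its change of 0.55 fell short of 1.5-fold. *Dcstamp*, which osteoclast precursors need in order to fuse, had a mean of 6.64 ± 0.37 (SD, n = 3) in control and 7.72 ± 0.32 (SD, n = 3) with PTH. Its difference of 1.08 ± 0.23 (SE) did not pass (limma adjusted p 0.0742). The lymphocyte targets *Il2*, *Il4*, *Ifng*, *Csf2* and *Fasl*, and the osteoclast genes *Calcr* and *Atp6v0d2*, were above background on no array.

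*Oscar*, *Acp5*, *Dcstamp* and *Ctsk* of this list are also osteoclast markers. In the separate list of 10 osteoclast markers 6 were tested, 4 were called higher (*Oscar*, *Acp5*, *Mmp9* and *Car2*) and 0 lower, and the median change was 0.94. The summed signal of the list was 12044 to 13506 in control and 16357 to 20864 with PTH, and *Calcr*, *Atp6v0d2* and *Ocstamp* were above background on no array. The part of osteoclast RNA in the changes of the target genes, or of *Nfatc4*, was not tested. Of 5 tested osteocyte markers 1 was called lower (*Mepe*), and of 4 tested osteoblast markers 2 were called lower. *Dmp1*, *Phex* and *Sost* had lower means too (-1.21, -0.88 and -1.21) but were not called, and *Sost* was above background on only 1 PTH array. The remaining tested osteocyte marker went the other way, at 0.70, without a call (limma adjusted p 0.056). All 6 tested macrophage markers and all 4 tested markers of smooth muscle and pericytes missed a call, and *Myh11* and *Cnn1* of the latter were above background on no array. The 6 tested endothelial markers (median -0.33) and the 2 tested fat markers missed a call too. Of 9 skeletal muscle markers, 7 were above background on no array and the 1 tested was not called. Of 7 tested neutrophil markers 4 were called lower, with a summed signal of 51890 to 52618 in control and 33633 to 38106 with PTH, and both tested red cell markers were called lower. The 1 tested B lymphocyte marker, *Cd79b*, was not called. Of 4 tested cartilage markers *Acan* was called lower (-1.06, limma adjusted p 0.0114), and the other 3 missed a call. Their part in the values of these genes was not tested either.

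The targets of Nfat5, which comprise osmolyte and amino acid transporters, aldose reductase and heat shock proteins, had 4 of 8 genes tested and 0 called, with a median of 0.03. *Slc6a12*, the betaine transporter, read 5.52, 5.89 and 5.60 in control and 6.28, 6.44 and 6.45 with PTH. It was higher on every PTH array, and the difference of 0.72 ± 0.14 (SE) just missed the threshold (limma adjusted p 0.0581). *Slc6a6*, the taurine transporter, differed by -0.21 (limma adjusted p 0.485), and *Slc5a3*, the myo-inositol transporter, was above background on no array.

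**Figure D4:**
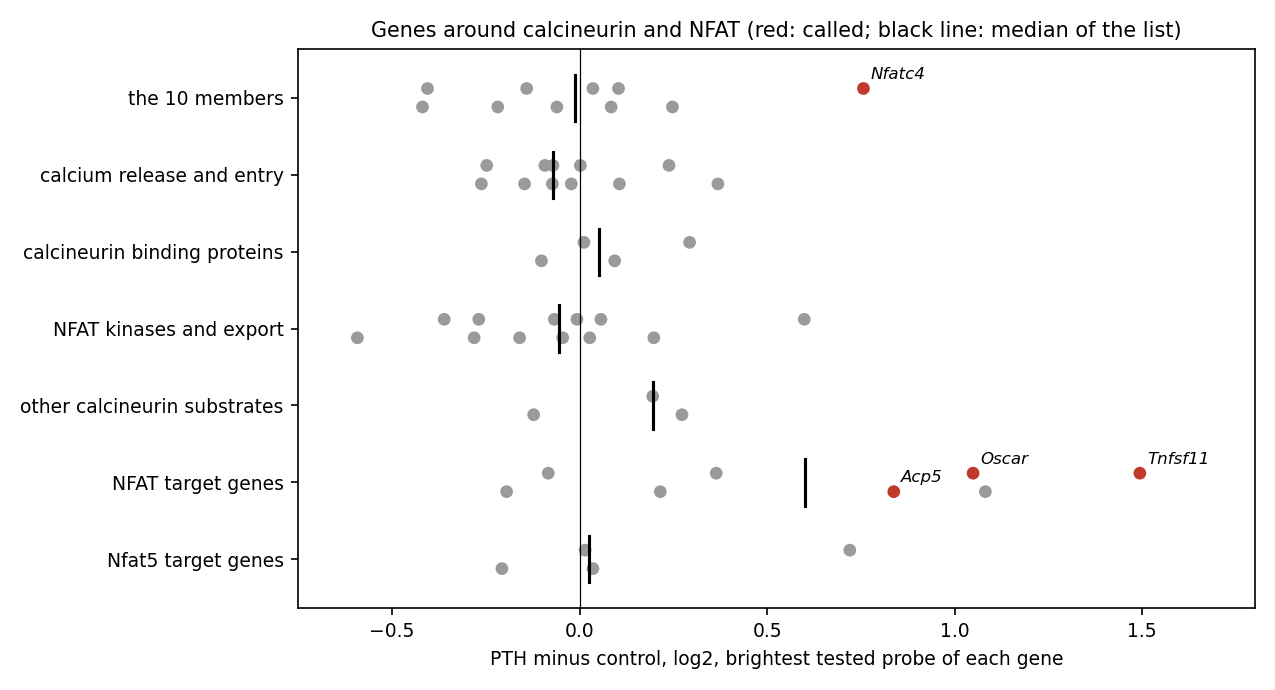
Change with PTH (normalized log2 signal, PTH minus control) of the brightest tested probe of each of the 10 genes and of the tested genes of the 6 pathway lists. Each point is a gene, red points were called and the black line is the median of the list. The lists were chosen with earlier results of these data known. The called genes are *Nfatc4* at 0.76 and the targets *Acp5*, *Oscar* and *Tnfsf11* at 0.84, 1.05 and 1.49, and the other lists have medians from -0.07 to 0.19.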

How the data were processed

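Cultured cortical bone from mouse tibia and femur was profiled on an Illumina mouse bead array in 3 control and 3 PTH samples, grouped by their sample titles. The authors deposited a signal intensity per probe and array that was not normalized, with a detection p-value against the negative controls of the array. GenomeStudio is named in the submitters' processing notes, without a version. For these arrays the study's methods give a differential expression score of that program, which was not computed here. The methods' t-test in this report is the Student's t-test that they name in general for comparing a pair of groups. No deposited column of sample values was left out.

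From the intensities, background was corrected with the help of the detection p-values, and an offset of 16, quantile normalization and log2 values were applied with limma 3.58.1 under R 4.3.3. Probes entered the test with a detection p under 0.05 on 3 or more of 6 arrays. The difference between PTH and control was fitted with lmFit and eBayes, p-values were adjusted by Benjamini-Hochberg over 16214 probes, and a probe was called at an adjusted p under 0.05 and a fold change of at least 1.5. Symbols follow the array, with older names updated through RefSeq (GRCm38.p6). Of 31508 symbols, 13424 were current, 8258 were older names and 9826 had no match. Probes of a gene were numbered from the brightest, and the brightest stood for a gene in a list.

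The genes and lists were chosen with earlier results of these data known. All 10 genes were named with every probe, and of each pathway list the called genes and otherwise the 2 with the largest change were named, together with *Dcstamp*, which was picked after its values were seen. Marker genes were named as part of their lists, and 1 listed gene is not reported here by name. The number of arrays limits the precision. On simulated data of the PTH comparison with 16292 probes, 12 of 50 changes of 1.5-fold (24%), 45 of 50 of 2-fold (90%) and 50 of 50 of 2.83-fold (100%) were recovered, with 5 false calls. These changes were planted only in probes whose mean signal exceeded background by more than 50, and the simulated noise was independent between arrays. The rates therefore do not hold for dim probes, such as those of *Nfatc2* and *Rcan2*, or for arrays that deviate together. Alternatives were other normalizations, offsets and detection filters, the replicate number as a block, the methods' t-test, a test against 1.5-fold, adjustment over genes, and leaving out each array, and, added after the data were seen, a term for the arrays numbered 3 and a fit without them.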

Additional observations from a re-analysis of the deposited data

How the results depend on the processing

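Over 17 alternatives, of which 6 left out an array, 266 of 276 pairs of a probe and an alternative stayed on the same side of the threshold, 10 were no longer past it and 0 were newly past it. The 10 were all *Nfatc4*. No called change turned its direction, and 15 uncalled changes did, 4 of them under median scaling, where 0 turned relative to the median of all probes. *Nfatc4* passed with quantile normalization alone (0.67, adjusted p 0.000159 in limma), an offset of 50 (0.72, 0.00331), cyclic loess (0.76, 0.0264), adjustment over genes (0.0231), a stricter filter of detection p below 0.01 on 6 of 6 arrays (0.00833), no filter at all (0.0401) and the methods' t-test without adjustment (0.000815). It did not pass with median scaling (0.92, adjusted p 0.105 in limma), under which the median of all probes shifted to 0.11 and its change relative to that was 0.81, with the methods' t-test after Benjamini-Hochberg adjustment (0.0718), or with limma's treat against a 1.5-fold change (1). The count of these probes called higher, 1 as reported, was 0 under each of these and 0 to 0 when an array was left out. Pathway genes called higher, 3 as reported, were 0 without the detection filter, 0 by the adjusted t-test, 0 by treat, 6 by the unadjusted t-test (with 1 lower) and 0 to 1 with an array left out. The cause was not tested.

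With the replicate number as a block, *Nfatc4* did not pass (adjusted p 0.0939 in limma), the count of these probes called higher was 0, and pathway genes called higher were 2. Of the 3 reported pathway calls only *Tnfsf11* was kept (limma adjusted p 0.0438). *Acp5* (0.0852) and *Oscar* (0.105) were lost, so the 2 include a gene not called in the main fit. Calls over all probes went from 261 to 64. Same-numbered samples had deviations that correlated with r of 0.07, 0.06 and 0.27 over 16214 probes. Only number 3 exceeded 0.1, so the numbers were not taken as pairs. The arrays numbered 3 did deviate together, and had 17369 and 17374 probes above background against 15504 to 16451 on the others. Chosen after seeing the data, a term for them left *Nfatc4* called (adjusted p 0.0485 in limma) and the pathway count at 3, with *Oscar* no longer past the threshold (0.055), whereas without both arrays 0 of these probes and 0 pathway genes were called higher. Over all probes, calls numbered 179 with quantile normalization alone, 336 with an offset of 50, 138 with median scaling, 294 with cyclic loess, 198 without a detection filter, 356 with the strict filter, 673 and 89 by the methods' t-test without and with adjustment, 30 by treat, and 68 to 106 with an array left out. A block for the slide was not run, because no slide is named in the sources used here. Signal over background limits *Nfatc2* and *Rcan2*, whose tested probes were not above background on every array.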
